A study of Homo sapiens with 12 samples.

Results

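Transcript levels in MOLT4 cells treated with the CDK9 degrader THAL-SNS-032 were compared with those in MOLT4 cells treated with the CDK9 inhibitor NVP-2. MOLT4 is an established line of human T-cell leukemia (T-ALL, the acute lymphoblastic form). THAL-SNS-032 (the degrader below) and NVP-2 (the inhibitor) were given at 250 nM for 6 h, so dose and time were matched, and the controls received 0.1% DMSO for 6 h. The series also holds libraries treated with SNS-032 at the same dose and time. Each treatment had 3 poly(A)-selected, stranded RNA-seq libraries, so 6 of the 12 libraries belong to the pair compared here and this was the 1 pair tested. Of 23617 genes in the table, 11379 averaged at least 1 FPKM across all 12 libraries and were tested. FPKM is by definition the number of sequenced fragments of a transcript, scaled to its length and to the size of the library. The deposited values did not sum to an equal total per library. They summed to 3.04e+06 to 3.48e+06 in DMSO, 1.27e+06 to 1.43e+06 with THAL-SNS-032 and 5.88e+05 to 7.35e+05 with NVP-2. How they were scaled across libraries is not given in the sources used here. Whether libraries of 1 treatment were grown as separate cultures is not in the labels. The p-values therefore rest on the spread between these libraries, which may be technical.

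CDK9 is the kinase of P-TEFb, the complex with a T-type cyclin that releases promoter-paused RNA polymerase II into productive elongation. When CDK9 is blocked, synthesis of most messenger RNAs stops early in the gene, and short-lived transcripts are lost first. NVP-2 occupies the ATP site of CDK9. THAL-SNS-032 is SNS-032, a less selective CDK inhibitor, joined by a linker to a thalidomide derivative. That end binds cereblon, which brings a ubiquitin ligase to the bound kinase and so marks it for the proteasome. NVP-2 is not the kinase ligand of the degrader, so the pair differs in the kinase ligand as well as in the cereblon ligand. T-ALL cells are known to depend on short-lived transcripts such as MYC and MCL1.

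Of the 14 T-lineage markers, among them CD3D, CD3E, CD7 and LCK, all reached a mean of 1 FPKM in DMSO. Their summed level was 4455 to 5594 FPKM in DMSO, 1597 to 1791 with the degrader and 794 to 966 with the inhibitor. Of 6 B-lineage markers 2 reached 1 FPKM in DMSO (CD79A at 9.07 and CD79B at 2.33 FPKM), as did 1 of 3 natural killer markers (NKG7 at 4.07) and 1 of 5 fibroblast and epithelial markers (KRT8 at 1.39), and all 4 had lower means with both compounds. No myeloid marker of 6 and no erythroid marker of 3 reached 1 FPKM in DMSO. The 6 myeloid markers nevertheless summed to 4.39 to 5.55 FPKM with THAL-SNS-032, against 1.05 to 1.21 in DMSO and 0.724 to 0.804 with NVP-2. CD14, MPO and LYZ had means of 1.63, 1.68 and 1.44 FPKM with THAL-SNS-032, while CSF1R, ITGAM and CD33 stayed at 0.112, 0.118 and 0.0993, near the floor of the table, and the part of these markers in the results was not tested. Spike-in RNA (ERCC), added at cell lysis, was level across all libraries, with library medians from -0.031 to 0.039 (log2) around the DMSO mean over 31 spike-ins. Whether the deposited values were scaled to the spike-ins is not given in the sources used here. If they were, the spike-ins are level by construction. SNS-032 replicate 1 stood apart from the other libraries of its group (median 2.24 against 2.98 and 2.82), and it enters the pooled spread behind each SE below.

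The level of the median gene was lower with NVP-2 than with THAL-SNS-032. Library medians of log2(FPKM + 1) over the tested genes were 2.53, 2.70 and 2.54 with THAL-SNS-032 and 1.80, 1.98 and 1.89 with NVP-2, against 4.77, 4.82 and 4.95 in DMSO. All 3 THAL-SNS-032 libraries thus lay above all 3 NVP-2 libraries and below all 3 DMSO libraries. The difference between the compounds was 0.70 (log2), larger than the SD of 0.098 and 0.090 within each group, with an exact two-sided permutation p of 0.1, the smallest that 3 against 3 libraries allow. It was 0.38 with 5 FPKM added before the log and 0.20 over all genes without the filter. The number of genes at 1 FPKM or more was 9820, 10146 and 9770 with THAL-SNS-032, and 8237, 8693 and 8538 with NVP-2. Per the labels, cells were counted and spike-in RNA was added at lysis. Whether the deposited values are per cell is not given in the sources used here, and RNA per cell was not tested.

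**Figure D1:**
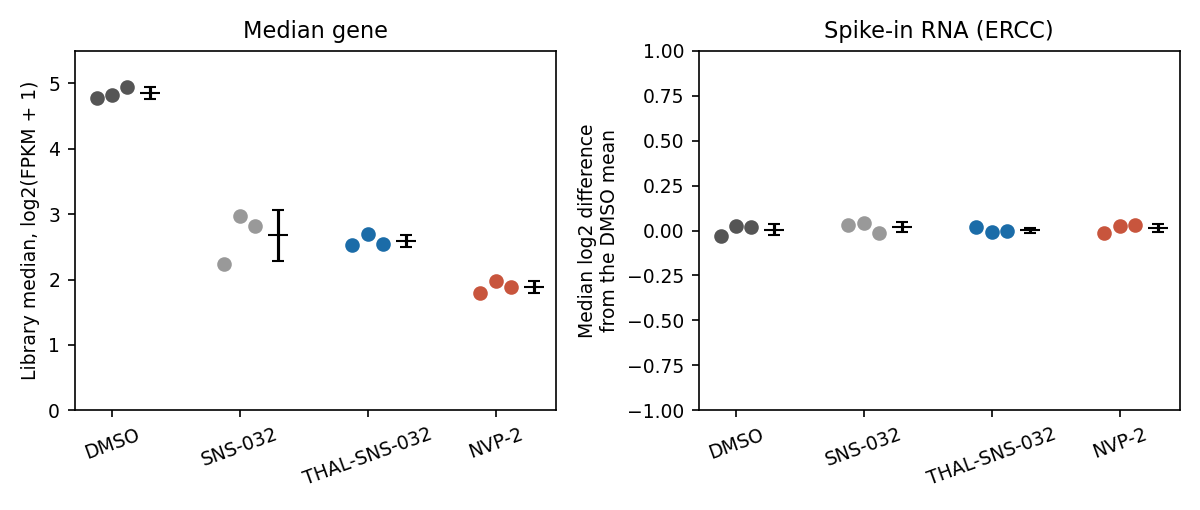
Left, median of log2(FPKM + 1) over the 11379 tested genes in each library; right, median log2 difference of 31 spike-in RNAs from the DMSO mean. Points are libraries, 3 per treatment, and bars are mean ± SD; the NVP-2 medians (1.80 to 1.98) lie below the THAL-SNS-032 medians (2.53 to 2.70), while the spike-ins stay within -0.031 to 0.039, which scaling to them, if done, would itself give.

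Differences between the compounds are given below as THAL-SNS-032 minus NVP-2 in mean log2(FPKM + 1), a scale that understates the difference of genes near the floor of the table at about 0.1 FPKM. On this deposited scale, with limma and a Benjamini-Hochberg adjusted p under 0.05, 7968 genes were called higher with THAL-SNS-032 (70% of those tested) and 113 lower (0.993%). The median difference was 0.64, and the 5th and 95th percentiles were -0.076 and 1.47. Genes higher by at least 2-fold numbered 2262 (19.9%), and 24 (0.211%) were lower by that much. Leaving out SNS-032 replicate 1, which takes its spread out of the pooled SE, gave 9162 higher and 232 lower. The count of lower genes was 75 without THAL-SNS-032 replicate 3 and 74 without NVP-2 replicate 2. The 95% interval fell inside 2-fold on this scale for 5281 genes (46.4%), and for 2618 with 0.1 FPKM added in place of 1. All 3 THAL-SNS-032 libraries lay above all 3 NVP-2 libraries in 9637 genes (84.7%) and below them in 283 (2.49%).

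Centring each library on its own median removed the shift of 0.70 and left 3339 genes higher with THAL-SNS-032 (29.3%) and 4329 lower (38%). Centring on the median difference from the DMSO mean instead gave 3959 higher and 3626 lower. Which direction held more genes thus depended on the way of centring, and the counts below use each library's own median. All 3339 had also been called higher on the deposited scale, and the 113 genes lower on the deposited scale were lower after centring as well. A further 1241 genes were called higher on the deposited scale and lower after centring, 3388 were called higher on the deposited scale alone, and 2975 were called lower after centring alone. The 95% interval lay within 2-fold for 10129 genes (89%) after centring and for 4741 (41.7%) on both scales. Genes named below as higher or lower keep their call on both scales unless a value after centring is given that does not pass the test.

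**Figure D2:**
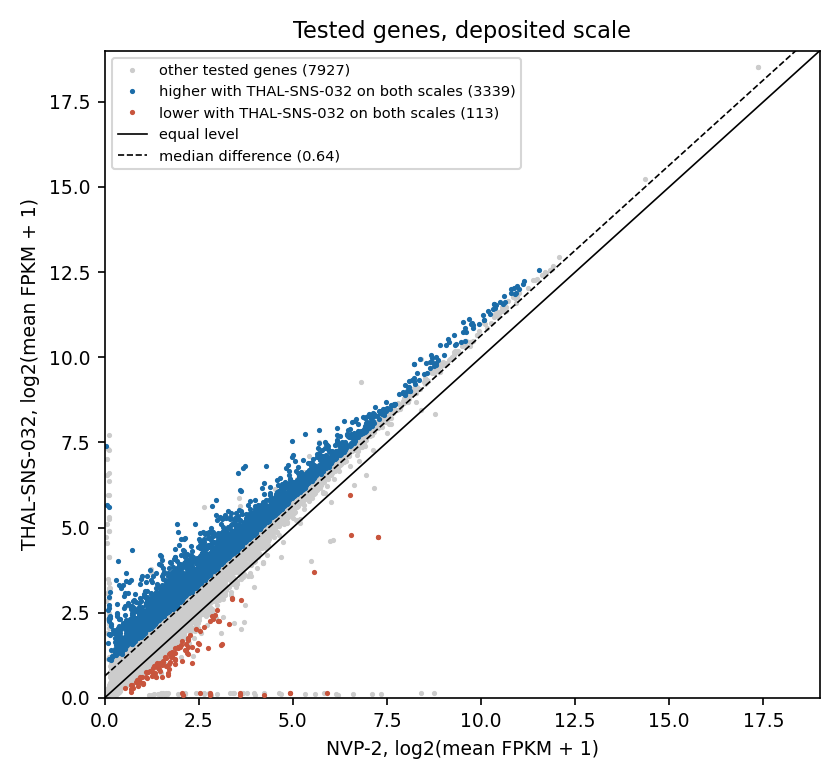
Mean level of each of the 11379 tested genes with NVP-2 (x axis) and THAL-SNS-032 (y axis), both as log2(mean FPKM + 1) on the deposited scale. The 3339 genes higher with THAL-SNS-032 on both scales lie above the dashed line of the median difference (0.64), and the 113 lower on both scales lie below the line of equal level.

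Most of the 3339 genes higher with THAL-SNS-032 were transcripts that both compounds left below the control level. In 3191 of them every THAL-SNS-032 library lay below every DMSO library. Of all tested genes 94.8% were called lower with THAL-SNS-032 than in DMSO, so this is not particular to the 3339. Overlap with the DMSO libraries was not counted over all tested genes. In 100 every THAL-SNS-032 library lay above every DMSO library, and in 70 of these 100 every NVP-2 library lay below every DMSO library. The comparisons of the compounds with DMSO share the same 3 DMSO libraries; with THAL-SNS-032 10786 genes were called lower (94.8%) and 156 higher (1.37%), and with NVP-2 11048 (97.1%) and 51 (0.448%). By group mean, 1461 tested genes were at 1 FPKM or more with THAL-SNS-032 and under 1 FPKM with NVP-2, and 125 the reverse.

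Several of the largest differences were in genes low in DMSO and higher with the degrader. MGP, which encodes matrix Gla protein, an inhibitor of calcification, was at 0.192, 0.183 and 0.197 FPKM in DMSO, 14.5, 16.8 and 14.7 with the degrader and 0.377, 0.212 and 0.216 with the inhibitor. All 3 degrader libraries stood far above the other 6, and the difference between the compounds was 3.69 (log2). TEX29 was at 17.2, 21.8 and 18.9 FPKM with the degrader, 0.442, 0.632 and 0.898 with the inhibitor and 0.218, 1.19 and 0.502 in DMSO, a difference of 3.62 ± 0.22 (log2, SE, adjusted p = 7.81e-08). MIA, a secreted protein first described in melanoma, was at 0.487, 0.183 and 0.71 FPKM in DMSO, 8.99, 10.8 and 9.98 with the degrader and 0.326, 0.0765 and 0.319 with the inhibitor, a difference of 3.14 ± 0.18 (adjusted p = 5.96e-08). Both genes were also above DMSO with SNS-032, the kinase ligand of the degrader, at 5.9, 10.5 and 7.76 FPKM for TEX29 and 4.7, 7.13 and 4.09 for MIA. RCVRN, the photoreceptor calcium sensor recoverin, was at 11.5, 13 and 10.3 FPKM with THAL-SNS-032 and 0.428, 0.563 and 0.439 with NVP-2 (3.09 ± 0.18, adjusted p = 5.96e-08), and its DMSO libraries (0.487, 0.326 and 0.781) overlapped those of NVP-2. SLC6A20, an amino acid transporter, differed by 2.96 (log2) and had 7.6 ± 0.864 FPKM (SD, n = 3) with THAL-SNS-032 against 0.102 ± 0.000979 with NVP-2, which is at the floor. MGP, RCVRN and SLC6A20, too, lay above all their DMSO libraries with SNS-032. Their SNS-032 libraries were at 0.885, 1.62 and 1.21 FPKM for MGP, 2.04, 3.48 and 4.22 for RCVRN and 1.01, 1.78 and 1.62 for SLC6A20. CHRNA10, a nicotinic acetylcholine receptor subunit, had the highest DMSO level of these genes: 2.46, 2.07 and 2.59 FPKM in DMSO, 8.69, 10.1 and 8.08 with THAL-SNS-032 and 0.249, 0.321 and 0.318 with NVP-2. It thus lay above DMSO with the degrader and below DMSO with the inhibitor, with a difference of 2.94 ± 0.15 (adjusted p = 1.58e-08). With SNS-032, CHRNA10 was below DMSO, at 0.807, 1.67 and 1.11 FPKM.

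CDKN1A, which encodes the CDK inhibitor p21, had the same order of the degrader, DMSO and inhibitor groups. It was at 3.15, 3.76 and 3.58 FPKM with THAL-SNS-032, 1.36, 1.21 and 1.4 in DMSO and 0.0757, 0.102 and 0.164 with NVP-2, so that the 3 groups did not overlap, and the compounds differed by 2.01 ± 0.12 (adjusted p = 8.86e-08). RASL11A, a Ras-like GTPase, was above DMSO (0.85, 1.72 and 1.21 FPKM) with both compounds, at 21.5, 26 and 23.6 FPKM with the degrader and 6.7, 7.68 and 6.83 with the inhibitor (1.61 ± 0.20, adjusted p = 2.54e-05). MGP and SLC6A20 met the filter on low values only through the degrader libraries, with means of 0.565 and 0.585 FPKM over the other 9, so their differences are given without a test. Without the degrader libraries the mean was under 1 FPKM in 23 of the 3339 genes higher on both scales and in 51 of all tested genes.

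The promoters of 2 of these genes are shown for comparison with the histone genes below. They are the 100 bases before the first RefSeq start (GRCh38.p14), in lower case, with CCAAT or its reverse complement ATTGG, and TATAAA, in capitals. TEX29 is at chr13:111316085-111316184 on the plus strand and MIA at chr19:40775060-40775159 on the plus strand.
TEX29: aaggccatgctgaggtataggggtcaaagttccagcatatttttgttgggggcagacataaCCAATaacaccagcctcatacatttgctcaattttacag
MIA: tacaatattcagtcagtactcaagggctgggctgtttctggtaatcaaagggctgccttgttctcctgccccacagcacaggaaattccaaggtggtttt
Neither window holds TATAAA, and the TEX29 window holds 1 CCAAT. Of the 87 genes higher by at least 4-fold with a matched promoter, short RNAs and unnamed loci left out, 4 had TATAAA (4.6%) and 28 had CCAAT or ATTGG (32.2%), against 1.66% and 22.8% of the 8910 tested genes with a matched promoter.

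Among genes that both compounds lowered, short RNAs and unnamed loci left out, the 4 with the widest gaps were SF3B4, HNRNPF, CKS2 and PCBP1. SF3B4, a subunit of the U2 snRNP that marks the branch site, was at 29.8, 38.2 and 31.1 FPKM with the degrader, 2.63, 3.01 and 2.63 with the inhibitor and 135, 168 and 163 in DMSO. The 3 groups did not overlap, the ratio of means between the compounds was 12, and the difference was 3.17 ± 0.21 (adjusted p = 1.48e-07). HNRNPF, a splicing regulator that binds G-rich RNA, was at 89.2, 104 and 95.6 FPKM after THAL-SNS-032 and 10.5, 11.1 and 10.2 after NVP-2 (3.07 ± 0.21, adjusted p = 2.52e-07), from 372, 442 and 448 in DMSO. PCBP1, a poly(C)-binding protein encoded by a gene without introns, was at 102, 126 and 107 FPKM with THAL-SNS-032 and 11.9, 13.2 and 12 with NVP-2 (3.07 ± 0.20, adjusted p = 1.72e-07). CKS2, the small partner subunit of mitotic CDKs, was at 825, 905 and 938 FPKM in DMSO, 100, 116 and 102 with the degrader and 10.1, 13.3 and 12 with the inhibitor (3.07 ± 0.21, adjusted p = 1.76e-07). The degrader thus left 11.9% of the DMSO mean of CKS2 and the inhibitor 1.33%. After centring, SF3B4, HNRNPF, CKS2 and PCBP1 differed by 2.47, 2.37, 2.37 and 2.36. The 4 genes were picked among those called alike on both scales with no overlap between the compounds, so neither trait is a further result.

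**Figure D3:**
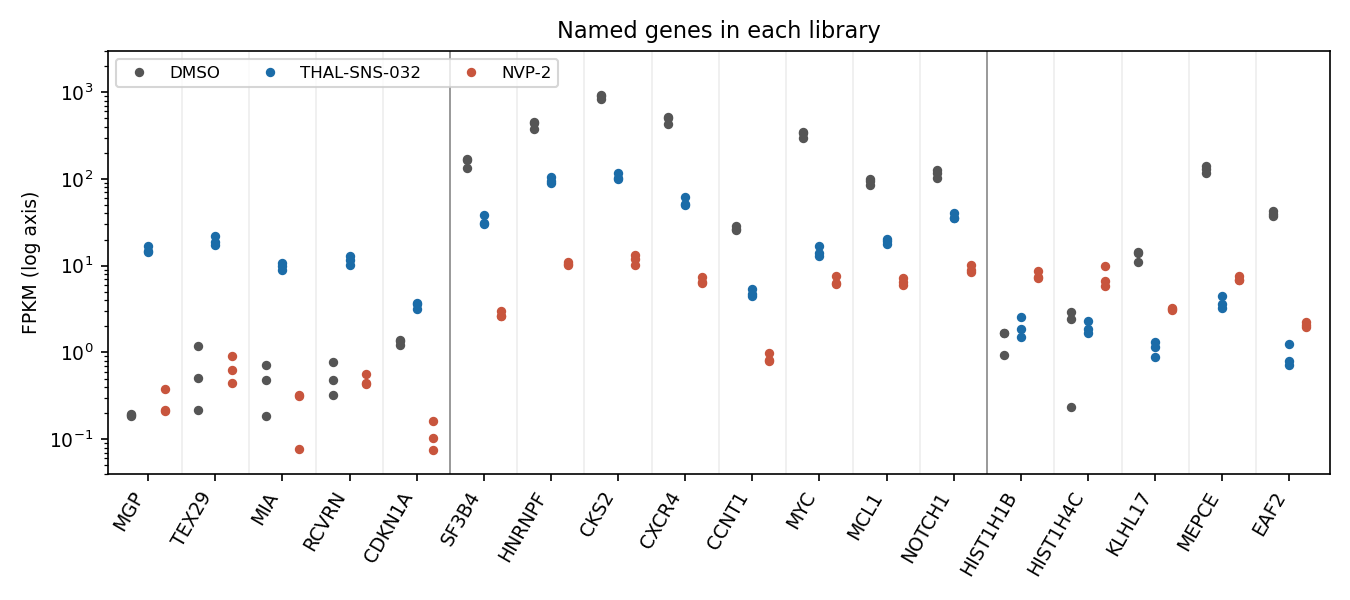
FPKM on a log axis in each of the 3 DMSO, 3 THAL-SNS-032 and 3 NVP-2 libraries for 18 named genes, with 1 point per library. The first 5 genes are highest with THAL-SNS-032, the next 8 are below DMSO with both and lowest with NVP-2, and the last 5 are lower with THAL-SNS-032 than with NVP-2.

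On the deposited scale 113 genes were called lower with the degrader. They comprised 15 replication-dependent histone genes, 22 short RNAs or unnamed loci and 76 other genes. Both compounds lay below all DMSO libraries in 84 of the 113, and NVP-2 lay above all DMSO libraries in 18. The same overlap was not counted over all tested genes, of which 97.1% were called lower and 0.448% higher with NVP-2 than in DMSO. In 7 of them, 1 a histone gene, the mean over the other 9 libraries was under 1 FPKM, so they met the filter through NVP-2.

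Replication-dependent histone genes encode the core and linker histones that package newly made DNA, and most of their transcripts end in a stem-loop in place of a poly(A) tail, so poly(A) selection measures only part of them. Of 72 such genes in the table, 56 were tested, and 15 were lower and 7 higher with THAL-SNS-032, with a median difference of -0.19 against 0.64 for all tested genes. After centring, 43 were lower and 1 higher, with a median of -0.90 against -0.066. Over all tested genes 0.993% were called lower and 70% higher on the deposited scale, and 38% and 29.3% after centring. The share called lower after centring was larger among low genes. It was 57.6% of tested genes under 5 FPKM in DMSO and 58.3% of those at 5 to 20. HIST1H1B, a linker histone, was at 7.33, 8.6 and 7.13 FPKM with NVP-2, 1.88, 2.59 and 1.49 with THAL-SNS-032 and 0.933, 1.67 and 1.69 in DMSO. The NVP-2 libraries lay above all others, including SNS-032 at 1.03, 3.51 and 2.19, and the difference was -1.55 ± 0.24 (adjusted p = 0.000128). HIST1H4C, a histone H4 gene, was at 5.78, 9.99 and 6.67 FPKM with NVP-2 and 1.67, 2.33 and 1.89 with THAL-SNS-032 (-1.49 ± 0.36, adjusted p = 0.00226), with DMSO at 2.46, 2.94 and 0.236. HIST2H3D, a histone H3 gene, was at 5.29, 6.55 and 5.38 FPKM with NVP-2, 1.68, 2.47 and 1.06 with THAL-SNS-032 and 0.77, 0.679 and 1.36 in DMSO (-1.33 ± 0.21, adjusted p = 0.000132). HIST1H1E, another linker histone, differed by -0.93 ± 0.19 (adjusted p = 0.000746), with 3.63 ± 0.4 FPKM with NVP-2 and 1.45 ± 0.443 with THAL-SNS-032.

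These are low values. All 15 histone genes called lower had a DMSO mean under 5 FPKM, as had 41 of the 56 tested, and histone genes of a family are near-identical, so the authors' counting could split reads between them. With 1 library left out at a time, 8 to 17 of the 56 were called lower on the deposited scale and 40 to 43 after centring; the 8 came from leaving out NVP-2 replicate 2. The number called higher ranged from 3 to 9, with 3 when THAL-SNS-032 replicate 3 or NVP-2 replicate 1 was left out. With no filter on low values 7 of 72 were lower, and at a mean of 5 FPKM or more 1 of 14. Of the 7 called higher, 2 had a DMSO mean under 5 FPKM. HIST1H2BK, which has a polyadenylated form, was at 19.7, 21.4 and 18 FPKM with the degrader and 6.8, 8.78 and 6.4 with the inhibitor (1.32 ± 0.21, adjusted p = 0.000168), and it was the one member higher after centring too. The 10 variant histones had 9 higher and none lower, with a median of 0.86, and after centring 5 were higher and 0 lower. They were listed as polyadenylated, which was not checked for each gene. Of all tested genes 70% were called higher on the deposited scale and 29.3% after centring. H2AFX, the variant phosphorylated at DNA breaks, was at 25.8, 32.6 and 26.1 FPKM after THAL-SNS-032 and 8.82, 11.3 and 8.58 after NVP-2 (1.46 ± 0.25, adjusted p = 0.00023).

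Promoters of 4 histone genes called lower are shown because these motifs were more frequent in the list than in all tested genes. The windows, from RefSeq (GRCh38.p14), are again the 100 bases before the first start, with CCAAT or ATTGG, and TATAAA, in capitals. HIST1H1B (RefSeq symbol H1-5) is at chr6:27867589-27867688 on the minus strand, HIST1H1D (H1-3) at chr6:26234988-26235087 on the minus strand, HIST1H1E (H1-4) at chr6:26156229-26156328 on the plus strand and HIST2H3D (H3C13) at chr1:149813694-149813793 on the minus strand.
HIST1H1B: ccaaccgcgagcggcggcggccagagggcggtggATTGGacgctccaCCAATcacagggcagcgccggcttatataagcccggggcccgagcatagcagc
HIST1H1D: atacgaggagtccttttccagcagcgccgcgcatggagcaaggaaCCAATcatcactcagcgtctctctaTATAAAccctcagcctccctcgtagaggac
HIST1H1E: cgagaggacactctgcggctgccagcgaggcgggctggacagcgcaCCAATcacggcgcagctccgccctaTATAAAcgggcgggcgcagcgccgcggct
HIST2H3D: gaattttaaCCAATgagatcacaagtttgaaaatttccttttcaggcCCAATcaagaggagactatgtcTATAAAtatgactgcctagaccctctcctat
TATAAA was searched on the gene's strand and CCAAT on both strands, and the motifs do not overlap each other. Of the 45 tested histone genes with a matched promoter, 25 had TATAAA (55.6%) and 38 had CCAAT or ATTGG (84.4%), against 1.66% and 22.8% of the 8910 tested genes with a matched promoter. Among the 11 matched histone genes called lower, 5 had TATAAA and 10 had CCAAT or ATTGG. The 65 other genes lower on both scales, short RNAs and unnamed loci left out, had 0 and 19 (29.2%).

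Leaving out histones, short RNAs and unnamed loci, KLHL17, TBC1D22B and COX10 had the largest differences among genes lower with THAL-SNS-032, and both compounds lowered all 3. KLHL17, a Kelch-family adaptor found in neurons, was at 0.887, 1.32 and 1.16 FPKM with the degrader, 3.23, 3.17 and 3.12 with the inhibitor and 11.1, 13.9 and 14.4 in DMSO (-0.98 ± 0.17, adjusted p = 0.000281). TBC1D22B, of the Rab GTPase-activating family, was at 0.579, 0.875 and 0.559 FPKM with THAL-SNS-032 and 1.9, 2.4 and 2.33 with NVP-2 (-0.94 ± 0.15, adjusted p = 0.00019). COX10, an enzyme of haem A synthesis for cytochrome oxidase, was at 0.39, 0.684 and 0.492 FPKM with the degrader and 1.71, 2 and 1.96 with the inhibitor (-0.93 ± 0.15, adjusted p = 0.00019). The 3 genes were picked among those called alike on both scales with no overlap between the compounds, so neither trait is a further result. In each the degrader libraries were the lowest of the pair. After centring the differences were -1.69, -1.65 and -1.63.

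The counts of list members below stand beside 70% called higher and 0.993% called lower over all tested genes on the deposited scale, and 29.3% and 38% after centring. A share of members near these is no result about the list. Calls after centring also followed the level in DMSO, for which the lists were not matched. Of tested genes under 5, at 5 to 20 and at 100 to 1000 FPKM in DMSO, 57.6%, 58.3% and 8.21% were called lower after centring. In the same groups 9.6%, 11.3% and 57.2% were called higher. Transcripts for the machinery on which both compounds act moved unevenly. The list of P-TEFb subunits, 7SK proteins and recruiters had 9 of 18 tested members higher and 2 lower, with a median of 0.47 against 0.64 for all tested genes, and after centring 4 were higher and 10 lower. With SNS-032 replicate 1 left out, 14 of the 18 were higher, as were 9162 of all 11379 tested genes. CDK9 itself was at 31.6, 37 and 39.7 FPKM in DMSO, 8.93, 10.9 and 9.47 with the degrader and 3.8, 4.5 and 4.36 with the inhibitor, a difference of 1.04 ± 0.19 (adjusted p = 0.000395). These are transcript levels, and CDK9 protein was not measured here. CCNT1, the main cyclin partner of CDK9, was at 4.78, 5.33 and 4.42 FPKM with the degrader, 0.788, 0.987 and 0.816 with the inhibitor and 26.4, 25.5 and 28.4 in DMSO (1.65 ± 0.19, adjusted p = 1.66e-05). The other T cyclin, CCNT2, was at 3.73, 4.34 and 3.71 FPKM after THAL-SNS-032 and 2.6, 3.25 and 3.13 after NVP-2, and its difference of 0.30 (95% interval -0.10 to 0.70, adjusted p = 0.155) did not pass the test. It passed without SNS-032 replicate 1 (adjusted p = 0.00768).

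Among the proteins that hold P-TEFb inactive on the 7SK RNA, MEPCE, which caps 7SK, was lower with THAL-SNS-032. It was at 118, 132 and 140 FPKM in DMSO, 3.29, 4.46 and 3.62 with the degrader and 6.8, 7.55 and 6.87 with the inhibitor (-0.76 ± 0.18, adjusted p = 0.00257). EAF2, a partner of the ELL elongation factors, was lower as well, at 1.26, 0.72 and 0.794 FPKM with THAL-SNS-032 and 1.97, 2.06 and 2.24 with NVP-2, from 39.1, 37.4 and 43.1 in DMSO (-0.69 ± 0.14, adjusted p = 0.000704). The shares of the DMSO mean left by the degrader and the inhibitor were, for MEPCE, 2.92% and 5.46%, and for EAF2 2.32% and 5.25%. HEXIM1, the inhibitory subunit that 7SK brings to P-TEFb, was at 8.65, 9.33 and 9.12 FPKM with the degrader and 6.46, 7.45 and 6.77 with the inhibitor, a difference of 0.35 (95% interval -0.026 to 0.72, adjusted p = 0.0866). That difference, too, passed without SNS-032 replicate 1 (adjusted p = 0.00127). MLLT1, a super elongation complex subunit, differed by 1.36 ± 0.20 (adjusted p = 8.43e-05).

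All 20 tested pausing and elongation factors were higher with THAL-SNS-032, with a median of 0.94; 12 of them stayed higher after centring and none was lower. TCEB3, the elongin A gene, was at 6.97, 8.09 and 6.72 FPKM after THAL-SNS-032 and 1.7, 2.04 and 1.85 after NVP-2 (1.53 ± 0.19, adjusted p = 3.22e-05). SUPT4H1, a subunit of the pausing factor DSIF, differed by 1.45 ± 0.20 (adjusted p = 5.96e-05), and SUPT16H, a subunit of the histone chaperone FACT, by 1.42 ± 0.21 (adjusted p = 9.11e-05). Of the other transcriptional CDKs and their cyclins, 10 of 15 were higher and 1 lower (median 0.52, with 5 higher and 8 lower after centring). The lower one was CDK20, at 0.633, 0.841 and 0.707 FPKM with THAL-SNS-032 and 1.31, 1.34 and 1.3 with NVP-2 (-0.43 ± 0.14, adjusted p = 0.015). Its call was lost without THAL-SNS-032 replicate 1 (adjusted p = 0.0542).

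RNA polymerase II subunits and general factors had 35 of 48 members higher and 1 lower, with a median of 0.67, close to that of all tested genes, and after centring 15 were higher and 14 lower. POLR2A, the catalytic subunit, was at 10.4, 12.1 and 10.8 FPKM with the degrader and 7.91, 8.86 and 8.02 with the inhibitor, a difference of 0.38 (95% interval -0.047 to 0.82, adjusted p = 0.0997) that did not pass the test unless SNS-032 replicate 1 was left out (adjusted p = 0.00565). POLR2B, the other large subunit, was at 38.8, 46.4 and 41.6 FPKM after THAL-SNS-032 and 12.3, 14.7 and 13.5 after NVP-2 (1.58 ± 0.20, adjusted p = 3.73e-05). TAF3, a TFIID subunit that reads methylated histone H3, was the lower member, at 3.1, 3.3 and 2.7 FPKM with THAL-SNS-032 and 4.36, 4.45 and 4.46 with NVP-2 (-0.43 ± 0.17, adjusted p = 0.0391). The call of TAF3 was lost without any single DMSO, THAL-SNS-032 or NVP-2 library, with adjusted p from 0.0535 to 0.126. Of 30 Mediator subunits 23 were higher and none lower (median 0.78, with 14 higher and 9 lower after centring).

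MYC and MCL1, the transcripts most often followed under CDK9 inhibitors, were both lower with NVP-2. MYC was at 12.8, 17 and 13.8 FPKM with the degrader, 6.21, 7.57 and 6.4 with the inhibitor and 300, 340 and 352 in DMSO, a difference between the compounds of 1.00 ± 0.20 (adjusted p = 0.000826). The degrader thus left 4.41% of the DMSO mean and the inhibitor 2.04%. MCL1, the short-lived survival protein of the BCL2 family, was at 85.8, 93.9 and 98.9 FPKM in DMSO, 18, 20.5 and 19.3 with the degrader and 6.02, 7.24 and 6.43 with the inhibitor (1.43 ± 0.20, adjusted p = 7.63e-05), or 20.8% and 7.07% of DMSO. After centring the difference was 0.30 for MYC (adjusted p = 0.00124) and 0.72 for MCL1 (adjusted p = 2.39e-07). Of 9 survival genes of the BCL2 and IAP families 7 were higher and none lower (median 0.92, with 6 higher and 2 lower after centring).

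Death-promoting BCL2 genes had 7 of 10 members higher and 1 lower (median 0.69, with 3 higher and 3 lower after centring). PMAIP1, which encodes NOXA, the antagonist of MCL1, was at 7, 9.51 and 8.86 FPKM with the degrader and 1.77, 2.62 and 2.56 with the inhibitor (1.51 ± 0.21, adjusted p = 5.91e-05). BCL2L11, which encodes BIM, was the lower member, at 1.22, 0.96 and 1.17 FPKM after THAL-SNS-032 and 1.53, 2.17 and 2.07 after NVP-2, from 16.2, 16.4 and 17.7 in DMSO (-0.46 ± 0.17, adjusted p = 0.0225). Its call was lost without THAL-SNS-032 replicate 2, NVP-2 replicate 2 or NVP-2 replicate 3 (adjusted p = 0.0829, 0.0812 and 0.0743). MYC target genes had 29 of 33 members higher and 1 lower, with a median of 0.87, and after centring 17 were higher and 4 lower. LDHA, lactate dehydrogenase, had the widest gap among them, at 104, 122 and 104 FPKM with THAL-SNS-032 and 17.2, 20.3 and 17.6 with NVP-2 (2.52 ± 0.20, adjusted p = 1.19e-06), from 1325, 1616 and 1657 in DMSO. WDR43, a ribosome biogenesis factor, was the lower one, at 3, 3.58 and 3.02 FPKM with the degrader and 4.91, 5.68 and 5.04 with the inhibitor (-0.57 ± 0.19, adjusted p = 0.0155). Its adjusted p was 0.0504, 0.0506 and 0.0545 without THAL-SNS-032 replicate 1, THAL-SNS-032 replicate 3 or NVP-2 replicate 2.

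Transcription factors of the T-ALL core circuit differed widely among themselves. Of 16 tested, 13 were higher with THAL-SNS-032 and none lower, with a median of 1.03, and after centring 12 were higher and 3 lower. MYB was nearly level between the compounds, at 25.3, 29.2 and 24.8 FPKM with the degrader, 22.3, 25.3 and 24 with the inhibitor and 411, 462 and 493 in DMSO, a difference of 0.14 (95% interval -0.31 to 0.59, adjusted p = 0.56). TAL1 was at 2.48, 3.33 and 2.49 FPKM after THAL-SNS-032 and 1.08, 1.35 and 1.37 after NVP-2 (0.73 ± 0.17, adjusted p = 0.00234), and the difference was 0.022 after centring (adjusted p = 0.735). GATA3 was at 3.57, 4.11 and 3.58 FPKM with THAL-SNS-032 and 0.871, 0.794 and 0.896 with NVP-2 (1.36 ± 0.18, adjusted p = 3.99e-05). ERG, an ETS factor, was at 30.6, 33.7 and 38.2 FPKM in DMSO, 12.2, 14.3 and 12.7 with the degrader and 1.72, 2.2 and 1.84 with the inhibitor (2.27 ± 0.20, adjusted p = 2.01e-06). After centring, ERG was still higher with THAL-SNS-032 by 1.57 (adjusted p = 8.32e-10) and GATA3 by 0.65 (adjusted p = 4.16e-06), whereas MYB was lower, at -0.56 (adjusted p = 3.39e-06).

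Genes of the NOTCH1 pathway, which is activated in most T-ALL, had 10 of 12 members higher and none lower (median 0.89, with 6 higher and 4 lower after centring). NOTCH1, the receptor, was at 35, 40.8 and 35.1 FPKM with the degrader, 8.9, 10.1 and 8.42 with the inhibitor and 102, 118 and 127 in DMSO (1.90 ± 0.20, adjusted p = 8.17e-06). DTX1, a target and regulator of the pathway, was at 11.4, 13.2 and 11.4 FPKM with the degrader and 2.05, 2.03 and 1.82 with the inhibitor (2.13 ± 0.20, adjusted p = 3.18e-06). HES1, the repressor that NOTCH1 induces directly, was at 2.24, 3.04 and 2.49 FPKM after THAL-SNS-032 and 0.191, 0.327 and 0.338 after NVP-2 (1.48 ± 0.20, adjusted p = 5.43e-05).

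The cereblon gene CRBN was at 37.5, 37.2 and 39.6 FPKM in DMSO, 4.31, 4.88 and 4.12 with the degrader and 2.07, 2.58 and 2.16 with the inhibitor (0.73 ± 0.20, adjusted p = 0.00462). After centring its difference was 0.029 (adjusted p = 0.651). The list of the cereblon ligase and the proteins it degrades with thalidomide-type drugs had 11 of 15 members higher and none lower (median 0.73, with 7 higher and 4 lower after centring). That median was near the 0.64 of all tested genes. CSNK1A1, casein kinase 1 alpha, had the largest difference of the list, at 2.12 ± 0.21 (adjusted p = 5.32e-06). IKZF1, the lymphoid factor Ikaros, differed by 1.77 ± 0.20 (adjusted p = 1.52e-05). IKZF1 was at 28.5, 32.8 and 28.4 FPKM with THAL-SNS-032 and 7.64, 8.39 and 8.01 with NVP-2. These values are of transcripts and say nothing of the proteins.

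T-cell surface and signalling genes had 33 of 40 members higher and none lower (median 0.79, with 16 higher and 9 lower after centring). CXCR4, the chemokine receptor that holds leukemic cells in the marrow, was at 50.6, 61.4 and 51.8 FPKM with the degrader, 6.46, 7.44 and 6.25 with the inhibitor and 427, 506 and 519 in DMSO (2.85 ± 0.21, adjusted p = 3.99e-07). The inhibitor left 1.39% of the DMSO mean of CXCR4 and the degrader 11.3%. RAG2, of the recombinase of antigen receptor genes, was at 4.71, 5.39 and 4.41 FPKM with the degrader and 0.687, 0.828 and 0.879 with the inhibitor (1.70 ± 0.17, adjusted p = 6.55e-06), and CD3G, a chain of the T-cell receptor complex, at 60.6, 67.1 and 63.7 and 18.1, 21.9 and 20.4 (1.62 ± 0.20, adjusted p = 3.12e-05). The GIMAP genes, a cluster of lymphocyte GTPases, had 6 of 7 members higher and none lower, with a median of 1.39, and after centring 4 were higher and 1 lower. GIMAP7 was at 208, 236 and 258 FPKM in DMSO, 16.8, 18.3 and 16.6 with the degrader and 1.59, 1.89 and 1.81 with the inhibitor (2.72 ± 0.20, adjusted p = 5.58e-07).

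Of 44 G1/S and replication genes 38 were higher with THAL-SNS-032 and none lower (median 0.94, with 25 higher and 10 lower after centring), and of 43 G2/M and mitosis genes 38 were higher and 1 lower (median 1.06, with 28 higher and 5 lower after centring). CCNE1, the cyclin of S-phase entry, was at 6.03, 6.75 and 6.23 FPKM after THAL-SNS-032 and 0.63, 0.789 and 0.721 after NVP-2 (2.10 ± 0.21, adjusted p = 5.32e-06). CCNA2, the S and G2 cyclin, was at 18.1, 21.4 and 18.6 and 2.96, 3.5 and 3.2 (2.27 ± 0.20, adjusted p = 2.07e-06), and PCNA, the replication clamp, at 124, 143 and 134 and 29.4, 33.3 and 28.8 (2.10 ± 0.22, adjusted p = 8.04e-06). The lower member was ANLN, the scaffold of the cytokinetic ring, at 3.44, 4.07 and 3.75 FPKM with THAL-SNS-032 and 5.46, 6.46 and 6.12 with NVP-2 (-0.56 ± 0.19, adjusted p = 0.0158). The call of ANLN was lost without THAL-SNS-032 replicate 1 (adjusted p = 0.0551) or NVP-2 replicate 2 (adjusted p = 0.0519). D cyclins, CDK2, CDK4 and CDK6 and their inhibitors had 11 of 12 members higher and none lower (median 1.22, with 9 higher and 1 lower after centring). CDKN1B, which encodes the inhibitor p27, was at 14.6, 16.8 and 15.1 FPKM with the degrader, 1.88, 2.03 and 1.65 with the inhibitor and 52.5, 59.3 and 58.7 in DMSO (2.53 ± 0.19, adjusted p = 5.58e-07), and CCND3, a D cyclin, was at 98.9, 117 and 103 and 27.5, 29.2 and 24.5 (1.93 ± 0.20, adjusted p = 9.03e-06).

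Of 31 p53 target genes 20 were higher with THAL-SNS-032 and none lower, with a median of 0.60, slightly under that of all tested genes, and after centring 9 were higher and 11 lower. TRIAP1, a small inhibitor of apoptosis, was at 110, 119 and 118 FPKM in DMSO, 16.9, 23 and 18.6 with the degrader and 2.58, 2.79 and 2.68 with the inhibitor (2.47 ± 0.20, adjusted p = 9.68e-07). AEN, an apoptosis-enhancing nuclease, was at 27.9, 34.7 and 28.9 FPKM with the degrader and 5.55, 6.71 and 6.05 with the inhibitor (2.15 ± 0.20, adjusted p = 3.76e-06). Unlike CDKN1A, both were below DMSO in every library of either compound. DNA repair genes had 30 of 32 members higher and none lower (median 0.83, with 16 higher and 6 lower after centring).

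**Figure D4:**
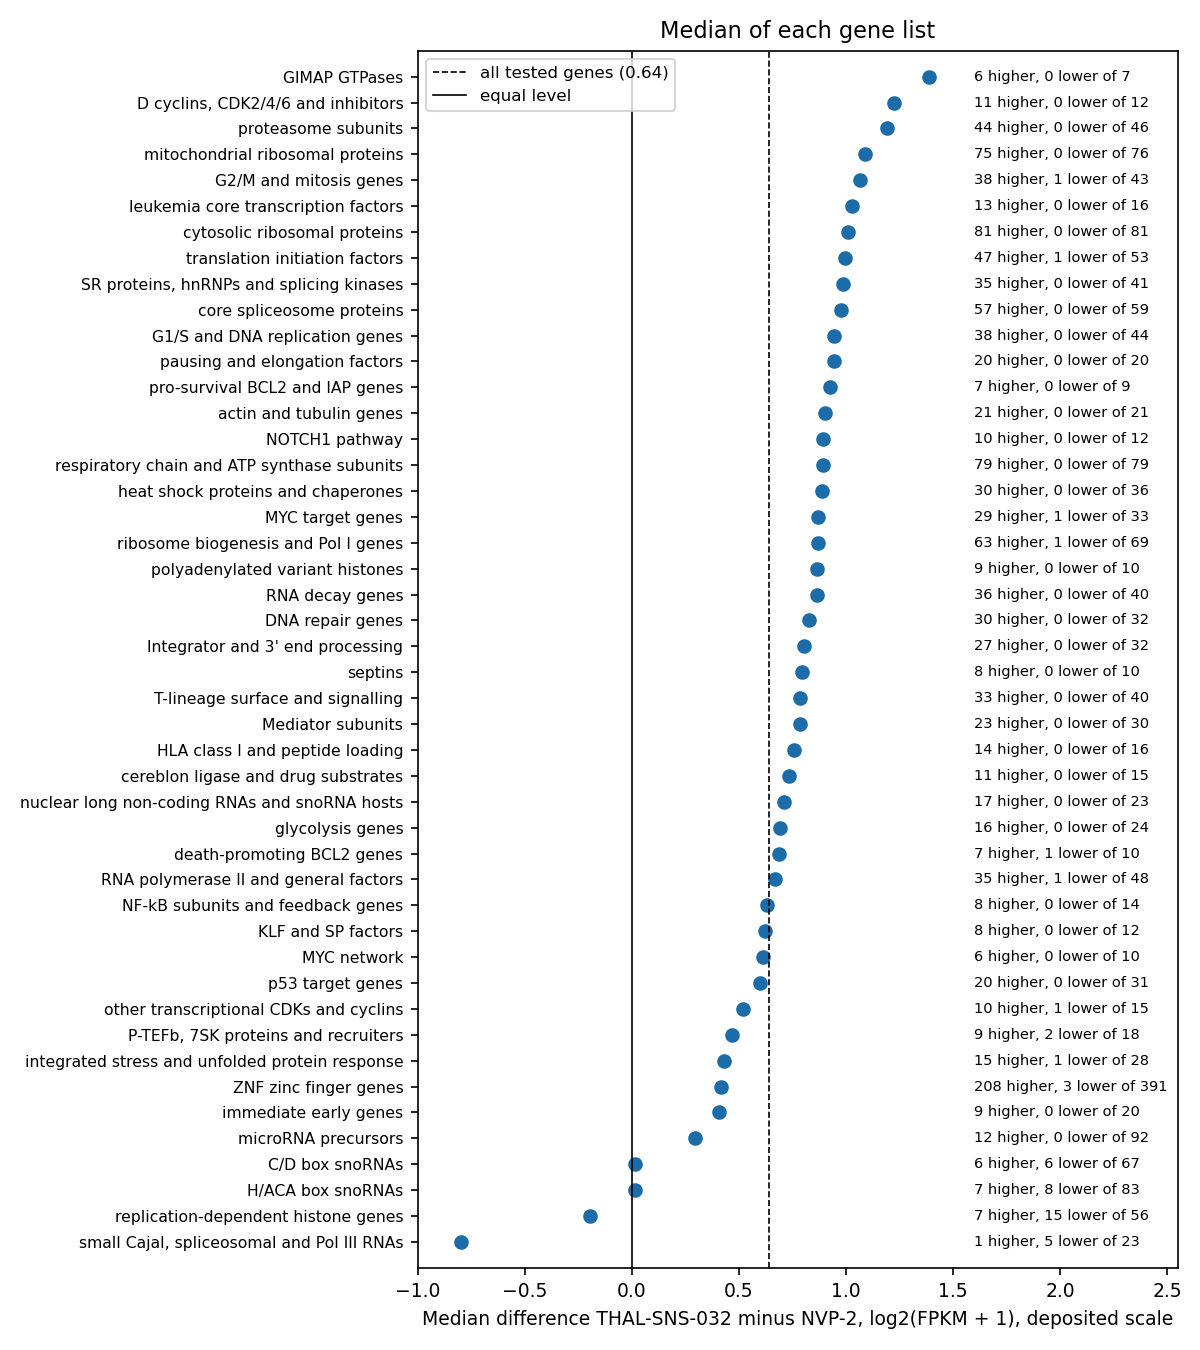
Median difference, THAL-SNS-032 minus NVP-2 in log2(FPKM + 1) on the deposited scale, of the tested members of 46 gene lists, with the number called higher and lower of those tested. The dashed line is the median of all tested genes (0.64) and the solid line is equal level; of the lists drawn, the GIMAP genes stand highest (1.39), and the replication-dependent histone genes (-0.19) and small Cajal, spliceosomal and Pol III RNAs (-0.80) lie below 0. The list of 10 genes low in DMSO, chosen because earlier results of these data showed them raised, is not drawn (median 2.35).

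On the deposited scale nearly all members of the large housekeeping families were called higher. All 81 tested cytosolic ribosomal protein genes were higher with THAL-SNS-032, by 0.72 to 2.18 with a median of 1.01, and 48 stayed higher after centring with none lower. Their transcripts lay at a median of -0.75 (log2) from DMSO with the degrader and -1.77 with the inhibitor, against -1.90 and -2.54 for all tested genes. RPL36AL stood apart from the family, at 214, 256 and 232 FPKM after THAL-SNS-032 and 47.9, 56.5 and 47.9 after NVP-2 (2.18 ± 0.21, adjusted p = 5.32e-06), and ribosomal protein genes have many processed copies that could take reads. Mitochondrial ribosomal protein genes had 75 of 76 members higher and none lower (median 1.09, with 58 higher and 2 lower after centring), respiratory chain and ATP synthase subunits 79 of 79 (median 0.89, with 38 higher and 0 lower after centring) and proteasome subunits 44 of 46 (median 1.19). After centring 36 proteasome subunits were higher and 2 lower. PSMD7, a lid subunit of the proteasome, was at 35.8, 42.1 and 37.8 FPKM with the degrader, 6.73, 8.04 and 7.49 with the inhibitor and 202, 218 and 220 in DMSO (2.23 ± 0.20, adjusted p = 2.35e-06). UQCRFS1, the iron-sulfur subunit of respiratory complex III, was at 36.7, 46.3 and 39 FPKM with THAL-SNS-032 and 6.66, 7.46 and 6.38 with NVP-2 (2.41 ± 0.22, adjusted p = 2.97e-06).

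The medians of the RNA-processing lists lay above that of all tested genes (0.64). Tested genes at 20 to 100 and at 100 to 1000 FPKM in DMSO had medians of 0.72 and 0.93, and the lists were not matched for level. Core spliceosome proteins had 57 of 59 members higher and none lower (median 0.97, with 33 higher and 6 lower after centring), and SR proteins, hnRNPs and splicing kinases 35 of 41 and none lower (median 0.98, with 26 higher and 9 lower after centring). CLK1, a kinase of SR proteins, was at 11, 11.2 and 10.6 FPKM with the degrader and 1.64, 1.98 and 2 with the inhibitor, from 123, 140 and 135 in DMSO (2.05 ± 0.20, adjusted p = 4.97e-06). Of 32 Integrator and 3' end processing genes 27 were higher (median 0.80, with 15 higher and 8 lower after centring). PCF11, which couples 3' end cleavage to termination, was at 5.68, 7.57 and 5.67 FPKM after THAL-SNS-032 and 1.06, 1.37 and 1.12 after NVP-2 (1.73 ± 0.20, adjusted p = 1.95e-05). Translation initiation factors had 47 of 53 members higher and 1 lower (median 0.99, with 35 higher and 7 lower after centring), RNA decay genes 36 of 40 and none lower (median 0.86, with 20 higher and 8 lower after centring), and ribosome biogenesis genes 63 of 69 and 1 lower (median 0.87, with 38 higher and 11 lower after centring). No initiation factor was lower once any single library of the pair was left out. No ribosome biogenesis gene was lower without THAL-SNS-032 replicate 1, THAL-SNS-032 replicate 3 or NVP-2 replicate 2, and 3 were lower without SNS-032 replicate 1. Of all 11379 tested genes 232 were lower without SNS-032 replicate 1.

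Heat shock proteins and chaperones had 30 of 36 members higher and none lower (median 0.89, with 18 higher and 9 lower after centring). HSPA8, the constitutive HSP70, was at 3562, 4472 and 4451 FPKM in DMSO, 196, 236 and 203 with the degrader and 37.1, 42.8 and 36.8 with the inhibitor (2.41 ± 0.21, adjusted p = 2.4e-06), so 5.09% and 0.935% of the DMSO mean were left. The list of the integrated stress and unfolded protein response had 15 of 28 members higher and 1 lower, and its median of 0.43 lay below that of all tested genes. After centring 5 were higher and 16 lower. HSPA5, the chaperone BiP of the endoplasmic reticulum, was at 22.8, 28.5 and 22.5 FPKM with THAL-SNS-032 and 6.53, 7.79 and 7.12 with NVP-2 (1.65 ± 0.21, adjusted p = 3.14e-05). Within that list, DDIT4, an inhibitor of mTORC1, was at 6.27, 7.78 and 3.58 FPKM with the degrader and 0.495, 0.652 and 0.491 with the inhibitor (2.10 ± 0.23, adjusted p = 1.23e-05), and XBP1, which drives the unfolded protein response, was at 2.95, 4.3 and 2.94 and 0.432, 0.621 and 0.415 (1.55 ± 0.20, adjusted p = 4.33e-05). ATF4, the central factor of the integrated stress response, was at 79.7, 90.7 and 83.1 FPKM after THAL-SNS-032 and 62, 74.8 and 64.7 after NVP-2, a difference of 0.33 (95% interval -0.10 to 0.76, adjusted p = 0.154). It passed without SNS-032 replicate 1 (adjusted p = 0.0135). The lower member, EIF2AK3, encodes the kinase PERK and was at 0.306, 0.306 and 0.249 FPKM with THAL-SNS-032 and 0.61, 0.65 and 0.688 with NVP-2 (-0.36 ± 0.14, adjusted p = 0.0304). The call of EIF2AK3 was lost without any single library of the pair, with adjusted p from 0.0612 to 0.0856.

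Immediate early genes, the short-lived first responders to signals, had 9 of 20 members higher and none lower (median 0.41, with 5 higher and 11 lower after centring). In log2(FPKM + 1), 13 of the 20 intervals lay within 2-fold, against 46.4% of all tested genes. ZFP36 and ZFP36L2, which encode proteins that speed the decay of AU-rich messenger RNAs, differed by 1.86 ± 0.16 (adjusted p = 1.47e-06) and 2.08 ± 0.21 (adjusted p = 6.09e-06). ZFP36L2 was at 26.5, 32.5 and 24.9 FPKM with the degrader, 5.63, 6.24 and 5.52 with the inhibitor and 214, 254 and 262 in DMSO. NF-kB subunits and feedback genes had 8 of 14 higher and none lower (median 0.63, with 4 higher and 6 lower after centring). Zinc finger genes of the ZNF series had 208 of 391 members higher and 3 lower (median 0.42, with 59 higher and 229 lower after centring). On the same scale 275 had an interval within 2-fold, which for low genes is not 2-fold in FPKM. ZNF211 was at 20.6, 24.8 and 25.7 FPKM in DMSO, 14.5, 15.6 and 13.3 with the degrader and 2.1, 2.76 and 2.32 with the inhibitor (2.19 ± 0.19, adjusted p = 2.45e-06), while SNS-032 left it above DMSO at 49.5, 83.8 and 81.8. ZNF670, one of the lower members, was at 0.264, 0.183 and 0.179 FPKM with the degrader and 0.583, 0.609 and 0.667 with the inhibitor (-0.42 ± 0.14, adjusted p = 0.0154). The call of ZNF670 was lost without NVP-2 replicate 3 (adjusted p = 0.0515), and 1 to 6 members of the list were lower over the left-out libraries, 1 without THAL-SNS-032 replicate 1 and 6 without SNS-032 replicate 1. Over all 11379 tested genes, 78 were lower without THAL-SNS-032 replicate 1 and 232 without SNS-032 replicate 1.

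Of the 4741 genes whose 95% interval lay within 2-fold on both scales, the 5 with the highest DMSO level were HNRNPH1, HNRNPD, SRSF2, RBMX and EIF4G2. HNRNPH1 was at 390, 436 and 410 FPKM after THAL-SNS-032 and 291, 340 and 299 after NVP-2, a difference of 0.41 (95% interval -0.02 to 0.84, adjusted p = 0.0803). Its relative HNRNPF, described above, was far lower with NVP-2. HNRNPD, an AU-rich element binding protein, was at 114, 131 and 122 FPKM with THAL-SNS-032 and 97.5, 119 and 104 with NVP-2, a difference of 0.20 (95% interval -0.26 to 0.66, adjusted p = 0.412). SRSF2, an SR splicing factor, differed by 0.33 (95% interval -0.12 to 0.78), RBMX, an RNA-binding protein of the hnRNP G type, by 0.31 (-0.12 to 0.73) and EIF4G2, an initiation factor used without the cap, by 0.43 (0.008 to 0.85). None of the 5 passed the test on the deposited scale, where each was nominally above its NVP-2 level, and all 5 were lower with THAL-SNS-032 after centring. Without SNS-032 replicate 1, HNRNPH1, SRSF2, RBMX and EIF4G2 passed as higher on the deposited scale (adjusted p = 0.00224, 0.0134, 0.00987 and 0.00198) and HNRNPD did not.

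The size of the difference followed how much of a gene there was in DMSO. The median difference was 0.28 in the 1370 genes under 5 FPKM in DMSO, 0.41 in the 3195 at 5 to 20, 0.72 in the 4724 at 20 to 100, 0.93 in the 1888 at 100 to 1000 and 0.93 in the 202 at 1000 FPKM or more. The added 1 compresses low genes, and with 0.1 added instead the medians were 0.60, 0.66, 0.85, 0.95 and 0.93. Among genes at 20 FPKM or more in DMSO, 6150 of 6814 (90.3%) had an exon number in GENCODE. In those with 1 exon the median difference was 1.01 (84 genes), against 0.90 with 2 exons (138 genes) and 0.76 with 11 or more (2759 genes). The single-exon genes had a lower median level with NVP-2 (2.01 FPKM) than the genes with 11 or more exons (6.48 FPKM), while the levels with THAL-SNS-032 were 7.05 and 11.7 FPKM. No test was made across these groups of genes, and gene length and level were not held equal. The single-exon genes include replication-dependent histone genes, such as HIST1H2BK and HIST2H2AA3. Reads shared between genes of similar sequence were not accounted for.

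**Figure D5:**
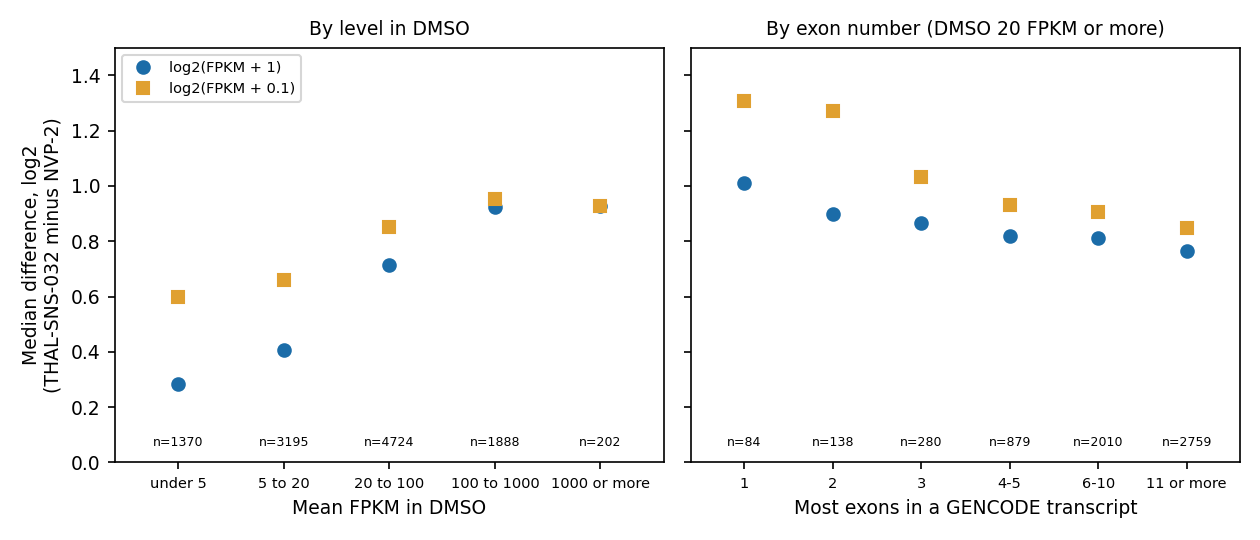
Median difference, THAL-SNS-032 minus NVP-2 (log2), of tested genes by mean FPKM in DMSO (left) and, for genes at 20 FPKM or more in DMSO, by the largest number of exons in a GENCODE transcript (right), with 1 or 0.1 FPKM added before the log and the number of genes under each point. With 1 added the median rises from 0.28 in the lowest level group to 0.93 in the highest, and it is 1.01 in single-exon genes and 0.76 in genes with 11 or more exons.

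Short RNAs varied more between libraries than messenger RNAs, and most could not be told apart. Of 67 C/D box snoRNAs 6 were higher and 6 lower, of 83 H/ACA box snoRNAs 7 and 8, of 92 microRNA precursors 12 and 0, and of 23 small Cajal, spliceosomal and Pol III RNAs 1 and 5. With single libraries left out, 4 to 12 C/D box snoRNAs were lower, 12 of them without NVP-2 replicate 2, and 6 to 11 H/ACA box snoRNAs were higher, 11 of them without THAL-SNS-032 replicate 2. SNORA26, an H/ACA box snoRNA, was at 0.0611, 0.068 and 0.0612 FPKM with the degrader, 8.49, 22.8 and 21.8 with the inhibitor and 48.2, 0.158 and 0.173 in DMSO (-4.02 ± 1.28, adjusted p = 0.0124). The degrader libraries were at the floor and 1 DMSO library stood far above the other two, and the call was lost with no filter on low values or with a robust limma fit. RNU11, the RNA of the minor U11 spliceosomal particle, was near the floor in DMSO (0.232, 0.224 and 0.244 FPKM), at 31.4, 29.4 and 18.4 FPKM with THAL-SNS-032 and at 112, 82.1 and 80.8 with NVP-2 (-1.77 ± 0.25, adjusted p = 6.58e-05). TERC, the RNA template of telomerase, was likewise near the floor in DMSO (0.222, 0.204 and 0.229 FPKM) and lower with THAL-SNS-032 (2.37, 2.42 and 1.99 FPKM) than with NVP-2 (3.93, 4.09 and 2.96 FPKM), with a difference of -0.51 ± 0.17 (log2, SE, adjusted p = 0.0149). The call of TERC was lost without THAL-SNS-032 replicate 3, NVP-2 replicate 1 or NVP-2 replicate 2 (adjusted p = 0.0535, 0.0526 and 0.0569). Neither RNA normally carries a poly(A) tail, and FPKM of RNAs shorter than a fragment is uncertain, so the levels are those of the poly(A)-selected libraries only.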

How the data were processed

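RNA was measured in 12 MOLT4 libraries, 3 per treatment. Per the labels, cells were counted, spike-in RNA (ERCC) was added at lysis and stranded libraries were prepared after poly(A) selection. Per the submitters' processing notes, HISAT, Cufflinks 2.0.0 and the build hg19 were used; the annotation and the scaling across libraries are not given in the sources used here. The authors deposited FPKM values, so read depth and counting error are unknown. No value is 0, and about 4200 names per library share 1 value near 0.1 FPKM.

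The 92 spike-in entries and 4 entries with 2 repeated names were left out. Genes averaging at least 1 FPKM across all 12 libraries were tested on log2(FPKM + 1) with limma 3.58.1 (R 4.3.3), with trend, in 1 fit over the 4 groups with 8 residual degrees of freedom. The contrast was THAL-SNS-032 minus NVP-2, two-sided, Benjamini-Hochberg adjusted over all tested genes and called under 0.05, on the deposited scale and with each library centred on its median. The fit was tested on simulated data. The 47 gene lists and their members were chosen with earlier results of these data known, and lists are described by counts and medians without a test. Named genes come from a rule: the 10 largest differences in each direction on each scale among genes called alike on both scales whose groups do not overlap, up to 3 called members per direction and the most abundant member of every list, 12 preset genes such as CDK9 and MYC, and the 5 genes of highest DMSO level within 2-fold on both scales. Those printed were picked from it after their values were seen. Exon numbers came from GENCODE and promoters from RefSeq (GRCh38.p14), matched by symbol and synonym for 8910 of the tested genes. Alternatives changed 1 choice at a time; leaving out short RNAs and unnamed loci was chosen after seeing the data. Figures used matplotlib 3.10.9.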

Additional observations from a re-analysis of the deposited data

How the results depend on the processing

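The shift between the library medians kept its direction and was 0.38 with 5 FPKM added, 0.20 without the filter and 0.65 to 0.87 otherwise. The higher calls and the centred calls stayed within 1.5 times the main count except as follows. On the deposited scale, lower genes numbered 73 with 5 FPKM added, 51 at a mean of 5 FPKM or more, 281 with the 6 libraries of the pair alone, 235 without the SNS-032 group, 62 with equal spike-in medians, and 74 to 232 with 1 library left out. Quantile normalization, which like centring takes out the library shift, gave 3541 higher and 4049 lower. Centring on the median difference from the DMSO mean gave 3959 higher and 3626 lower, the reverse balance. Against a minimum change of 2-fold, 226 were higher and 3 lower, and 118 and 31 after centring. Without the filter, which adds genes near the floor, 7431 were higher and 9475 lower after centring. Intervals within 2-fold numbered 2618 with 0.1 FPKM added, 8470 with 5 added, 17322 without the filter and 2579 at a mean of 5 FPKM or more, and 20129 without the filter after centring; within 1.5-fold they numbered 1861. For the other changes the cause was not tested. With the replicate number as a block, 8322 genes were higher and 130 lower, and 3334 and 4398 after centring. Libraries of the same number correlated at 0.044, 0.098 and 0.043, so the numbers were not taken to pair them, and 2 of the 3 THAL-SNS-032 libraries correlated best with the NVP-2 library of their number. After centring the differences of 10 named genes that had not passed on the deposited scale turned negative: ATF4 -0.37, CCNT2 -0.40, EIF4G2 -0.28, HEXIM1 -0.36, HNRNPD -0.51, HNRNPH1 -0.29, MYB -0.56, POLR2A -0.32, RBMX -0.40 and SRSF2 -0.37. The table holds no counts, so the limit that depth sets on genes near 0.1 FPKM is unknown.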
